A study of Homo sapiens with 60 samples.

Results

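Here 10 genes were followed, out of the 60675 gene IDs of the expected-count table: CXCL8, CXCL1, CXCL2, CXCL3, CCL20, ICAM1, LCN2, NFKBIA, TNFAIP3 and BIRC3. They were picked by name as well-known targets of the transcription factor NF-kappaB, with earlier results of these data known. All 10 passed the filter on low counts, CCL20 mainly through groups in which it was later called higher, and were tested among 16022 genes. RNA was sequenced from HT29 cells, an established epithelial line from a human colorectal adenocarcinoma, grown without other cell types, after 24 h with 1 of 8 herbal extracts prepared in 70% ethanol, or with vehicle. Every extract was given at 3 doses.

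Coptidis Rhizoma was given at 320, 64 and 12.8 µg/mL, with 2 libraries a dose, and Bupleuri Radix at 310, 62 and 12.4 µg/mL, with 3 libraries a dose. According to the series text, an extract whose IC20 lay under 500 µg/mL was given at its IC20 and at dilutions of it. The other 6 extracts were given at 500, 100 and 20 µg/mL. Citri Unshius Pericarpium, Cimicifugae Rhizoma and Aconiti Lateralis Radix Preparata had 3 libraries a dose, Zizyphi Fructus and the herbal formula Yijung-tang had 2, and the herbal formula Banhasasim-tang had 1. The vehicle group held 3 libraries, labelled as 0.1% DMSO, while the series text gives 2%. The labels do not describe the replicates as separate cultures, so p-values reflect only how far these libraries differ among themselves, which may be technical. The vehicle libraries carry a set number of their own, and the extracts fall in 4 further sets, so vehicle and set cannot be told apart in any comparison with vehicle.

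NF-kappaB is a family of dimeric transcription factors held in the cytoplasm by inhibitors of the IkappaB type. Cytokine, Toll-like and stress signals activate kinases that mark the inhibitors for degradation, the dimers enter the nucleus, and genes for chemokines, adhesion molecules and the pathway's own inhibitors are transcribed. In the gut epithelium this program calls in neutrophils and lymphocytes and belongs to the defence against bacteria.

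NF-kappaB binds sites of the kappaB type. A strict form, GGG, any 2 bases and then TTTCC, was searched on both strands. It stood in the RefSeq promoter window (250 bases before to 50 after the gene's start, GRCh38.p14) of 7 of the 10 genes, against 1.91% of 35116 such windows. The genes are known targets, so the count is no independent observation. The matches are printed to give the sequences these genes share, each as 30 bases on the gene's own strand with the match in capitals.
CXCL1: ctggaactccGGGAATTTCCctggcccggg
CXCL2: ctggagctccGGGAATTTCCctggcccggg
CXCL3: ctggagctccGGGAATTTCCctggcccggc
CCL20: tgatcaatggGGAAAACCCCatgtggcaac
NFKBIA: tgactggcttGGAAATTCCCcgagcctgac
TNFAIP3: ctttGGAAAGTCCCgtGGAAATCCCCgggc
BIRC3: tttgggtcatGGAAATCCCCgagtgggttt

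The windows lie at chr4:73869304-73869333 (+ strand) for CXCL1, chr4:74099254-74099283 (-) for CXCL2, chr4:74038749-74038778 (-) for CXCL3 and chr2:227813753-227813782 (+) for CCL20. Those of NFKBIA, TNFAIP3 and BIRC3 lie at chr14:35404811-35404840 (-), chr6:137867188-137867217 (+) and chr11:102317275-102317304 (+). In GENCODE 29 the windows of CXCL1, NFKBIA and BIRC3 lie upstream of the gene, those of CXCL2, CXCL3 and TNFAIP3 in its first exon, because that annotation starts these genes earlier, and that of CCL20 in an intron of a longer transcript. CXCL1, CXCL2 and CXCL3 share an unbroken run of 23 bases around the match, and the match of the other 4 genes reads on the opposite strand. TNFAIP3 holds 2 matches side by side. No match to these letters was found in the windows of CXCL8, ICAM1 and LCN2, which says nothing about binding there. The looser form, GGG, any 5 bases and then CC, which contains the first, was found in 10 of 10 genes and in 58.7% of all windows. The AP-1 pattern TGANTCA was found in CXCL8 and LCN2 alone among the 10, against 7.71% of all windows.

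Library totals ran from 18083462 to 36715142 expected counts. Of the 60, 1 library stood apart: Zizyphi Fructus medium replicate 3 had a median correlation of 0.945 with the other libraries (log2 CPM, all tested genes), against 0.958 in both Coptidis high libraries and at least 0.984 in the rest. It enters none of the comparisons directly, but it does enter the shared estimate of spread. Markers of colon epithelium summed to 8870 to 13900 CPM (the usual counts scaled to a common library size, here with TMM factors) per library, with none of 10 at 0 throughout. Those of immune cells summed to 1150 to 1990 CPM, nearly all of it LYZ (1110 to 1990 CPM). MS4A1 and FCGR3A were at 0 in every library. Of the 10 immune markers, 5 stayed under 0.17 CPM in every library, which is what 3 counts come to in the shallowest library. Fibroblast and endothelial markers summed to 1.5 to 5.49 CPM, with PDGFRA at 0 in every library.

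In vehicle the 10 genes spanned a wide range of levels. Per kilobase of exon, LCN2 stood highest at 54.3 ± 3.3 CPM (SD, n = 3) and NFKBIA second at 9.49 ± 0.47. CXCL8 followed at 2.01 ± 0.18, ICAM1 at 1.28 ± 0.11, CXCL1 at 1.04 ± 0.15 and BIRC3 at 0.745 ± 0.040. CXCL3 (0.431 ± 0.091) and TNFAIP3 (0.392 ± 0.012) did not differ beyond their spread, nor did ICAM1 and CXCL1. The length used is the union of all exons in GENCODE 29, so the order of the genes is rough. For CXCL3 that union, 2219 bases, covers the whole gene (74036589 to 74038807), introns included, and its value may be too low. CXCL2 (0.275 ± 0.11) and CCL20 (0.17 ± 0.058) were the lowest, and their SDs overlapped. CXCL2 ranged from 2 to 54 counts per library and CCL20 from 0 to 54, so counting error alone is large for both. From here on, levels are CPM without division by length.

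Coptidis Rhizoma at its high dose and, to a smaller extent, Bupleuri Radix at its high dose were where these genes moved. From low to high dose, 7 of the 10 genes rose under Coptidis and none fell, in a comparison in which 27.7% of all tested genes rose and 28.4% fell. Their median change over all 10 was 1.44 on the log2 scale, against -0.02 over all tested genes. Under Bupleuri 6 of the 10 rose and none fell, against 6.34% and 6.6% of all tested genes, with a median of 0.39 against -0.01. Because the 10 genes were chosen with earlier results of these data known, these counts and medians are no independent test of the list. Of all calls, 49.4% were rises under Coptidis and 49% under Bupleuri, and scaling by total counts in place of TMM factors moved these shares to 62.2% and 27.8%. Rises are called at a Benjamini-Hochberg adjusted p under 0.05 in edgeR's quasi-likelihood test over all 16022 genes. CCL20 passed the filter on low counts, 0.5 CPM in 3 libraries or more, mainly through the high Coptidis and high Bupleuri libraries. It was called higher in those same groups, so its place in both counts is not independent of the filter. Both of its calls held without the filter. In bulk RNA, fewer cells with a transcript and less transcript per cell cannot be told apart.

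**Figure D1:**
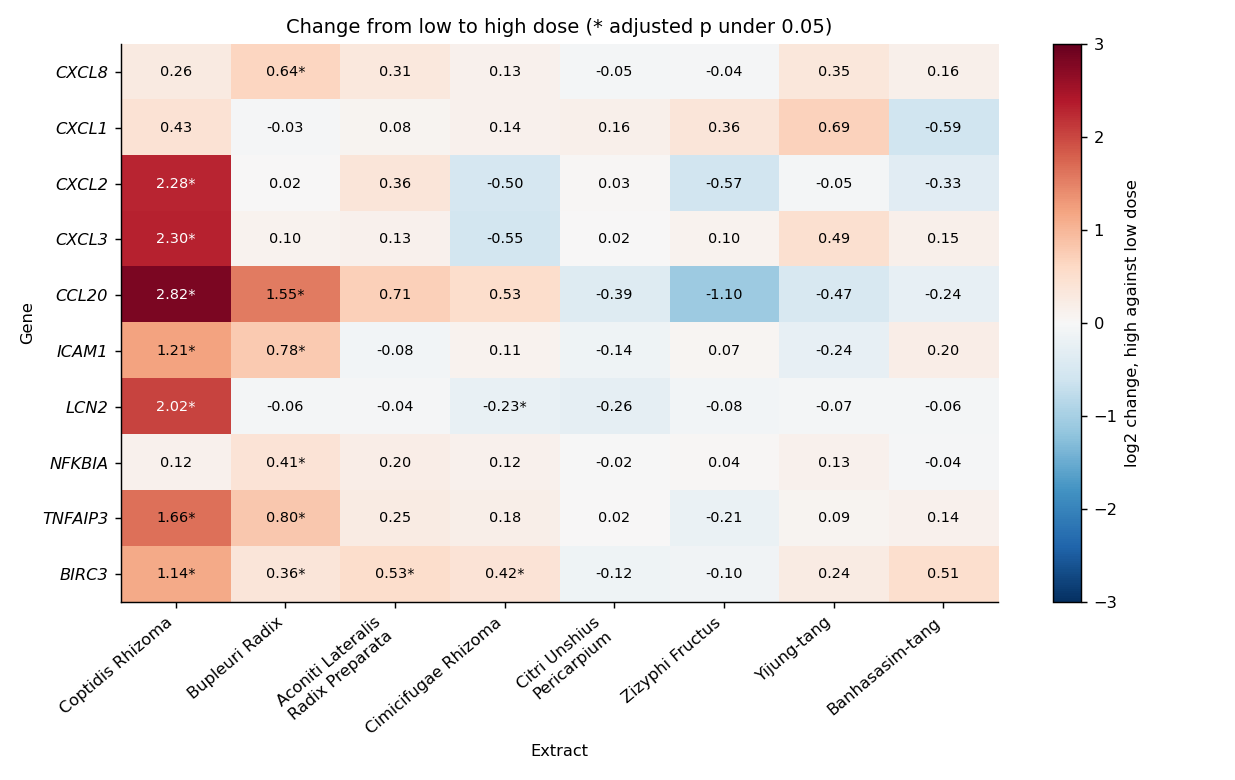
Colour and number give the log2 change from low to high dose of each gene (rows) in each extract (columns), with a star where the adjusted p was under 0.05. The stars gather in the Coptidis column (7) and the Bupleuri column (6), and BIRC3 is starred in 4 extracts.

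Among the chemokines, CXCL2, CXCL3 and CCL20 rose under Coptidis. CXCL2, a neutrophil attractant read through the receptor CXCR2, measured 0.578 and 0.234 CPM at the low dose, 0.42 and 0.338 at the medium dose and 2.03 and 1.87 at the high dose. Both high libraries lay above each of the other 58 libraries, of which the highest held 0.751 CPM. The change from low to high was 2.28 ± 0.49 (log2 ± SE, adjusted p = 0.000124). CXCL3, its close relative, measured 0.756 and 0.469 CPM at the low dose, 0.735 and 0.507 at the medium and 2.44 and 3.58 at the high dose. Again no other library reached the high pair, the next being 1.4 CPM, and the change was 2.30 ± 0.29 (adjusted p = 5.8e-09). CCL20, which attracts CCR6-bearing lymphocytes and dendritic cells to epithelium, measured 0.311 and 0.234 CPM at the low dose and 1.65 and 2.25 at the high dose. The groups did not overlap and the change was 2.82 ± 0.49 (adjusted p = 3.9e-06), on 7 and 6 counts at the low dose. How many of all tested genes showed no overlap was not counted, here or below.

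Under Bupleuri, neither CXCL2 nor CXCL3 passed. CXCL2 measured 0.486, 0.751 and 0.257 CPM at the low and 0.667, 0.443 and 0.383 at the high dose. The change was 0.02 ± 0.46, with a 95% interval of -0.88 to 0.92, which does not exclude a change of nearly 1 log2 unit either way. For CXCL3 the change was 0.10 ± 0.24 (interval -0.37 to 0.57). CCL20 rose under Bupleuri, from 0.243, 0.563 and 0.147 CPM to 1.02, 0.927 and 0.766, with no overlap. Its change was 1.55 ± 0.42 (adjusted p = 0.00874), and the call was lost without low replicate 1 (adjusted p = 0.0533) or low replicate 3 (0.0964).

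CXCL8, the chemokine also called interleukin 8 and the chief neutrophil attractant of human epithelium, passed under Bupleuri. It measured 6.2, 5.07 and 5.58 CPM at the low Bupleuri dose, 5.08, 5.9 and 5.44 at the medium and 9.96, 7.74 and 8.66 at the high dose. The high libraries lay above all other 57, and the rise was 0.64 ± 0.13 (adjusted p = 0.000242). Under Coptidis CXCL8 measured 4.36 and 4.65 CPM at the low and 5.14 and 5.67 at the high dose. The groups, of 2 libraries each, did not overlap there either, which has no share of all tested genes beside it. The difference of 0.26 ± 0.16 did not pass (adjusted p = 0.182). CXCL1, another CXCR2 ligand, measured 1.47 and 1.21 CPM at the low and 1.88 and 1.71 at the high Coptidis dose, a difference of 0.43 ± 0.26 (adjusted p = 0.173). Under Bupleuri it measured 1.7, 1.74 and 1.58 CPM at the low and 2.18, 1.37 and 1.38 at the high dose, overlapping, with a difference of -0.03 ± 0.21.

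CXCL8, CXCL1, CXCL2 and CXCL3 lie within 359 kb on chromosome 4 (73740506 to 74099293, GRCh38). Because CXCL1, CXCL2 and CXCL3 are near-identical copies, reads shared between them could have been split. Their expected counts were whole numbers in 60 of 60 libraries, whereas ICAM1 had a fractional count in 26 libraries. CXCL2 and CXCL3 rose under Coptidis beside a CXCL1 that did not pass, and the test of one gene's change against another's was not run.

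**Figure D2:**
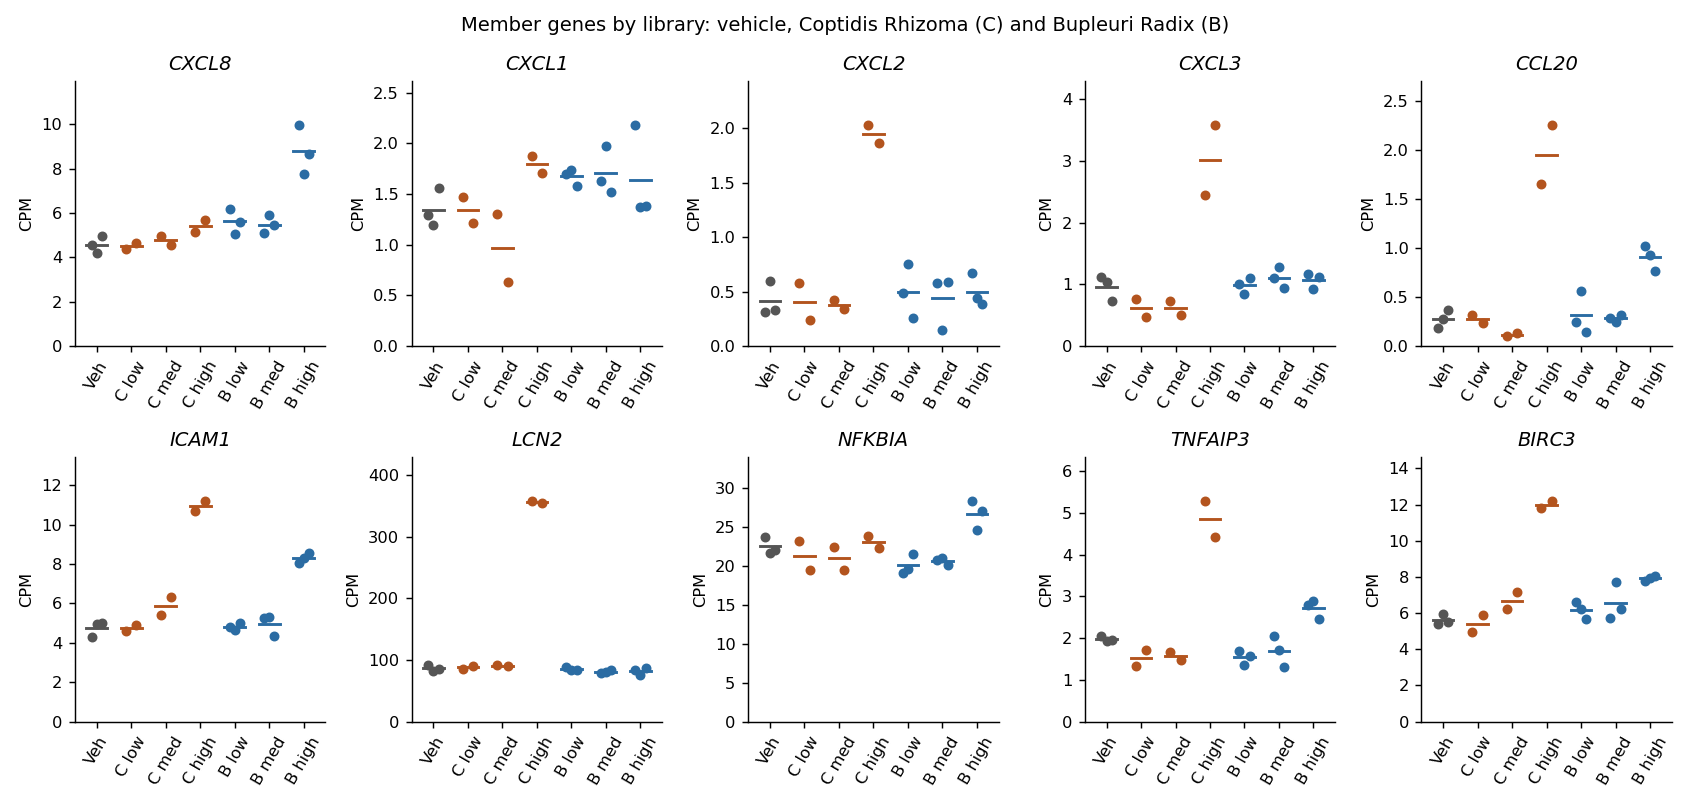
Each point is the level of a gene in 1 library (CPM, linear axes from 0) in vehicle and in the low, medium and high doses of Coptidis Rhizoma (C) and Bupleuri Radix (B), with bars at group means. LCN2 stands at 358 and 355 CPM in the high Coptidis libraries and under 100 CPM in every other group shown.

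LCN2 encodes lipocalin 2, a secreted protein that withholds iron from bacteria. It had the most precise change of the 10 genes. It measured 85.4 and 90.2 CPM at the low Coptidis dose, 91.2 and 90.4 at the medium and 358 and 355 at the high dose. The remaining 58 libraries all lay between 67.3 and 95.8 CPM. The rise was 4.06-fold, or 2.02 ± 0.07 on the log2 scale (adjusted p = 2.62e-25). Under Bupleuri LCN2 measured 88.4, 83.1 and 84.1 CPM at the low and 83.8, 75.9 and 86.3 at the high dose. That difference was -0.06 ± 0.06, with an interval of -0.18 to 0.06.

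ICAM1, the adhesion molecule that leukocyte integrins bind, rose under both extracts. Under Coptidis it went from 4.58 and 4.88 CPM at the low dose through 5.43 and 6.34 at the medium to 10.7 and 11.2 at the high dose. Under Bupleuri it went from 4.82, 4.65 and 4.99 CPM through 5.28, 5.31 and 4.33 to 8.05, 8.31 and 8.55. In both extracts the high libraries lay above all lower doses. The rises were 1.21 ± 0.12 (adjusted p = 2.73e-11) and 0.78 ± 0.10 (adjusted p = 1.46e-07).

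Of the genes that restrain the pathway, TNFAIP3 encodes A20, an enzyme that edits ubiquitin chains and shuts down signalling. It measured 1.33 and 1.72 CPM at the low and 5.29 and 4.42 at the high Coptidis dose, a rise of 1.66 ± 0.19 (adjusted p = 4.6e-10). Under Bupleuri it measured 1.7, 1.36 and 1.58 CPM at the low and 2.8, 2.9 and 2.45 at the high dose, a rise of 0.80 ± 0.16 (adjusted p = 0.000273). Neither pair of groups overlapped. BIRC3 encodes cIAP2, a ubiquitin ligase at the tumor necrosis factor receptor that protects from cell death. It measured 4.93 and 5.9 CPM at the low and 11.8 and 12.2 at the high Coptidis dose, a rise of 1.14 ± 0.11 (adjusted p = 4.98e-12). Under Bupleuri it measured 6.6, 6.25 and 5.65 CPM at the low and 7.78, 7.94 and 8.05 at the high dose, without overlap. That rise was 0.36 ± 0.09 (adjusted p = 0.00361), and it did not pass under scaling by total counts (0.31, adjusted p = 0.0702) or without the filter on low counts (0.37, adjusted p = 0.0756).

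NFKBIA encodes IkappaB alpha, the inhibitor that binds NF-kappaB dimers in the cytoplasm and that the factor itself induces. Under Coptidis it measured 23.2 and 19.5 CPM at the low, 22.5 and 19.5 at the medium and 23.9 and 22.4 at the high dose. The low and high groups overlapped, and the difference was 0.12 ± 0.15 (interval -0.17 to 0.41, adjusted p = 0.524). Scaling by total counts in place of TMM factors gave all tested genes a median of 0.107 and NFKBIA 0.25 (adjusted p = 0.0366). Under Bupleuri NFKBIA measured 19.1, 19.6 and 21.6 CPM at the low and 28.4, 24.7 and 27.1 at the high dose. The groups did not overlap and the rise was 0.41 ± 0.12 (adjusted p = 0.0167). Leaving out high replicate 1 (adjusted p = 0.0788), low replicate 1 (0.0764), low replicate 2 (0.0577) or high replicate 3 (0.051) ended that call.

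**Figure D3:**
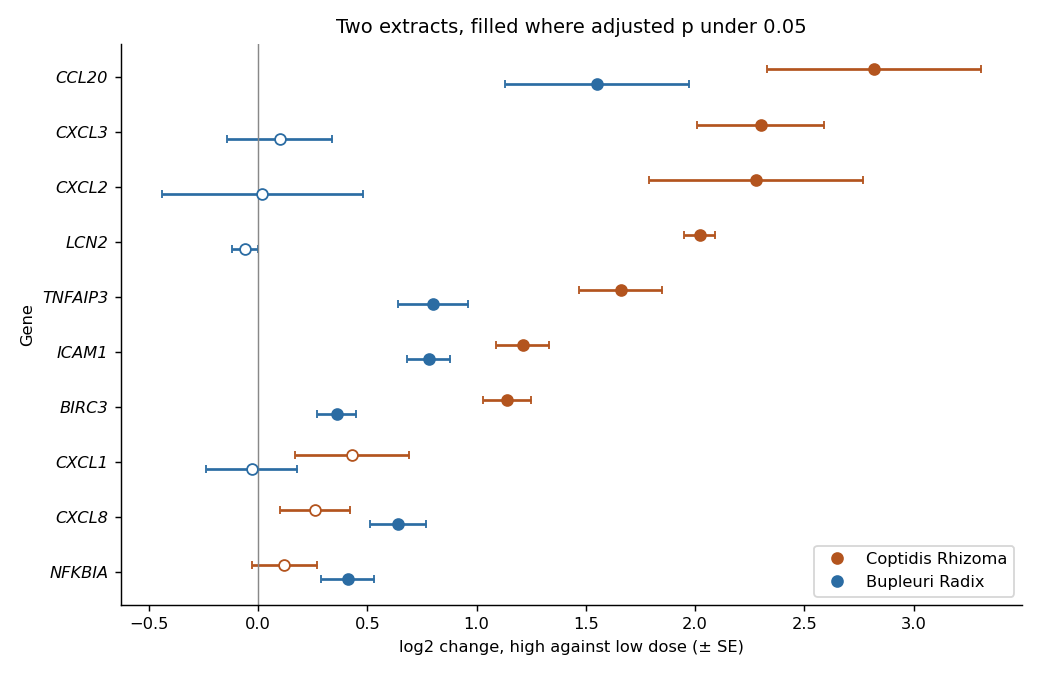
Points give the log2 change from low to high dose with its SE for Coptidis Rhizoma (orange) and Bupleuri Radix (blue), filled where the adjusted p was under 0.05. LCN2, CXCL2 and CXCL3 are filled for Coptidis alone, and CXCL8 and NFKBIA for Bupleuri alone.

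Passing in one extract and not in the other does not show a difference between extracts, so the difference of the 2 changes was tested. This comparison was added after the values had been seen, and the doses, 320 against 310 µg/mL at the high end, were not the same. It also sets libraries of 2 sets side by side, each extract against its own low dose. The change under Coptidis exceeded that under Bupleuri for 6 of the 10 genes and was smaller for none, where 22.6% of all tested genes had a larger and 23% a smaller change (49.5% of calls larger, or 70% under total-count scaling). LCN2 differed by 2.08 ± 0.09 (adjusted p = 1.17e-21), CXCL3 by 2.20 ± 0.38 (6.21e-06), CXCL2 by 2.25 ± 0.68 (0.00622) and TNFAIP3 by 0.86 ± 0.25 (0.00418). BIRC3 differed by 0.78 ± 0.14 (adjusted p = 1.32e-05) and ICAM1 by 0.43 ± 0.16 (0.0248). The ICAM1 call was lost without Coptidis low replicate 2 (adjusted p = 0.0902), Coptidis high replicate 3 (0.0743) or Bupleuri low replicate 3 (0.0505). The CXCL2 call was lost without Coptidis low replicate 3 (1.72, adjusted p = 0.0652). Without the filter on low counts, ICAM1 (adjusted p = 0.201) and TNFAIP3 (0.0532) did not pass.

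The 2 genes called under Bupleuri alone did not pass this test. For CXCL8 the difference was -0.38 ± 0.21 (interval -0.79 to 0.03, adjusted p = 0.134). For NFKBIA it was -0.29 ± 0.19 (interval -0.66 to 0.08, adjusted p = 0.217), and it passed without Zizyphi Fructus medium replicate 3 (adjusted p = 0.0415) and with the compared groups fitted alone (0.0436). CCL20 differed by 1.27 ± 0.68 (adjusted p = 0.127) and CXCL1 by 0.46 ± 0.34 (0.285).

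In both extracts the calls came at the step from medium to high dose, but the 2 steps were not tested against each other. From low to medium, none of the 10 genes passed under either extract, where 1.35% of all tested genes changed under Coptidis and 0% under Bupleuri. At an unadjusted p under 0.05, 2 genes passed under Coptidis and 0 under Bupleuri, and DESeq2 called 0 in both. The share of all tested genes at that unadjusted level was not computed, so these counts have no background beside them. For part of the member results, here and below, DESeq2 gave no adjusted p, so a count of 0 from it need not cover all 10 genes. From medium to high, 8 rose under Coptidis, against 26% of all tested genes rising, and 6 under Bupleuri, against 5.06%. The eighth Coptidis gene was CXCL1, with 1.3 and 0.634 CPM at the medium dose and a change of 0.86 ± 0.27 (adjusted p = 0.00713). That call was lost without medium replicate 3 (0.47, adjusted p = 0.208) or high replicate 2 (0.8, adjusted p = 0.0504). CCL20 had 3 counts in each medium Coptidis library, 6 in all against 98 at the high dose, a ratio of 16.8 with an exact 95% counting interval of 7.46 to 47.0. The Bupleuri count from medium to high stood at 3 to 5 whenever a library of either group was left out. It was 3 without medium replicate 3, when NFKBIA (adjusted p = 0.123), TNFAIP3 (0.0634) and BIRC3 (0.166) no longer passed. Each of the other 5 libraries, left out in turn, ended the NFKBIA call, the BIRC3 call or both. BIRC3 was also lost under total-count scaling (adjusted p = 0.252), without the filter (0.336), in DESeq2 (0.0689) and with the groups alone (0.0855).

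Other features moved with the Coptidis dose. The share of counts from the 2 mitochondrial ribosomal RNAs was 10.5% and 9.79% in the low libraries, 6.44% and 6.26% in the medium and 1.64% and 1.56% in the high libraries. In vehicle it was 1.07% to 1.15%, so the low and medium libraries were the ones that stood apart from vehicle. With the mitochondrial genes left out the number of the 10 genes called from low to high stayed at 7. That fit only drops those rows and cannot show what lay behind the share, which was not tested. Of 10 markers of colon epithelium, 3 rose and 4 fell, near the shares of all tested genes, of which 27.7% rose and 28.4% fell. KRT20, LGALS4 and CDX2 rose by 0.52 ± 0.04, 0.46 ± 0.10 and 0.49 ± 0.14. VIL1, which encodes villin of the brush border, fell by 1.08 (SE 0.05), and CDX1, an intestinal transcription factor, fell by 2.06 (SE 0.35). KRT8 and KRT18 fell by 0.38 and 0.44. Of the immune markers LYZ fell by 0.31 (SE 0.10) and none of the 3 tested rose. PECAM1, an endothelial marker at 1.56 and 2.09 CPM in the low libraries, was at 0.15 and 0.292 in the high ones, a fall of 3.03 (SE 0.37, adjusted p = 3.32e-09). Its change differed by -3.22 ± 0.44 from that under Bupleuri (adjusted p = 6.27e-08). Under total-count scaling KRT8 (adjusted p = 0.254) and LYZ (0.412) did not pass, nor did LYZ without Coptidis low replicate 2 (0.0763). Under Bupleuri KRT20 rose by 0.80 ± 0.04, KRT18 rose by 0.17 ± 0.05 and VIL1 fell by 0.55 (SE 0.04). The KRT18 call was lost under total-count scaling (0.12, adjusted p = 0.447), without the filter (0.117), and without Bupleuri low replicate 2 (0.0687) or high replicate 3 (0.0749). The part of these changes in the result was not tested.

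BIRC3 was the member that passed in most extracts. Under Aconiti Lateralis Radix Preparata it measured 5.71, 5.06 and 5.71 CPM at 20 µg/mL and 9.01, 7.21 and 7.59 at 500 µg/mL, without overlap. The rise of 0.53 ± 0.09 (adjusted p = 0.000118) was the only call among the 10 genes, where 0.468% of all tested genes rose and 2.23% fell. The median over the 10 was 0.22, against 0.01 over all tested genes. CXCL8 under Aconiti measured 5.07, 5.02 and 4.57 CPM at the low and 6.33, 5.61 and 6.22 at the high dose, with a difference of 0.31 ± 0.13 (adjusted p = 0.308). NFKBIA measured 20.2, 23.2 and 21.7 CPM at the low and 25, 24.5 and 25.5 at the high dose, with a difference of 0.20 ± 0.12 (adjusted p = 0.614). For both genes the groups did not overlap and the test did not pass. The same held for TNFAIP3, at 2.01 to 2.18 CPM at the low and 2.27 to 2.7 at the high dose. How many of all tested genes had no overlap was not counted, here or in the other extracts.

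Under Cimicifugae Rhizoma 1 gene rose and 1 fell, against 0.437% of all tested genes in each direction, and the median over the 10 was 0.13. BIRC3 measured 5.44, 5.11 and 5.43 CPM at the low and 7.31, 6.16 and 7.93 at the high dose, a rise of 0.42 ± 0.09 (adjusted p = 0.009). LCN2 measured 90, 87.7 and 82.7 CPM at the low and 80.6, 74.6 and 67.3 at the high dose, a fall of 0.23 (SE 0.06, adjusted p = 0.0457). In neither case did the doses overlap. Both calls were lost under total-count scaling (BIRC3 adjusted p = 0.136, LCN2 0.666), without the filter on low counts (0.223 and 0.222) and with the compared groups fitted alone (0.12 and 0.1). Leaving out low replicate 2 (BIRC3 0.0858, LCN2 0.186) or high replicate 3 (0.272 and 0.462) also ended both. The BIRC3 call was lost without high replicate 1 (0.0543), and the LCN2 call without low replicate 1 (0.215) or high replicate 2 (0.125).

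None of the 10 genes passed from low to high dose in the other 4 extracts. Under Citri Unshius Pericarpium LCN2 measured 85.6, 86.5 and 87.1 CPM at the low and 77.8, 69.2 and 70.2 at the high dose. The groups did not overlap, and the difference of -0.26 ± 0.06 stood at an adjusted p of 0.0526 in edgeR and 0.0088 in DESeq2, where 0.144% of all tested genes changed in edgeR. LCN2 was the 1 gene under Citri with an unadjusted p under 0.05, and it passed without Citri high replicate 1 (adjusted p = 0.0295) or Zizyphi medium replicate 3 (0.00679). Under Zizyphi Fructus 0 of the 10 genes reached even that level, and 0% of the 16022 tested genes were called (44 genes without the filter on low counts). There CCL20 was near the floor, with 0.134 and 0.16 CPM at the high dose against 0.272 and 0.377 at the low dose. Under Yijung-tang 2 genes had an unadjusted p under 0.05, where 0.206% of all tested genes were called: CXCL1, with 1.25 and 1.14 CPM at the low and 1.85 and 1.99 at the high dose (0.69 ± 0.26, adjusted p = 0.566), and CXCL8 (0.35 ± 0.16, adjusted p = 0.746). Under Banhasasim-tang, with 1 library a dose whose spread is taken from the other groups, 1.73% of all tested genes were called. BIRC3 measured 4.39 CPM at the low, 5.81 at the medium and 6.25 at the high dose (0.51 ± 0.16, adjusted p = 0.159). DESeq2 called 0 genes under Zizyphi, Yijung-tang and Banhasasim-tang among those it gave an adjusted p, which need not be all 10. The shares given for these extracts are at adjusted p, and none was computed at an unadjusted p under 0.05.

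**Figure D4:**
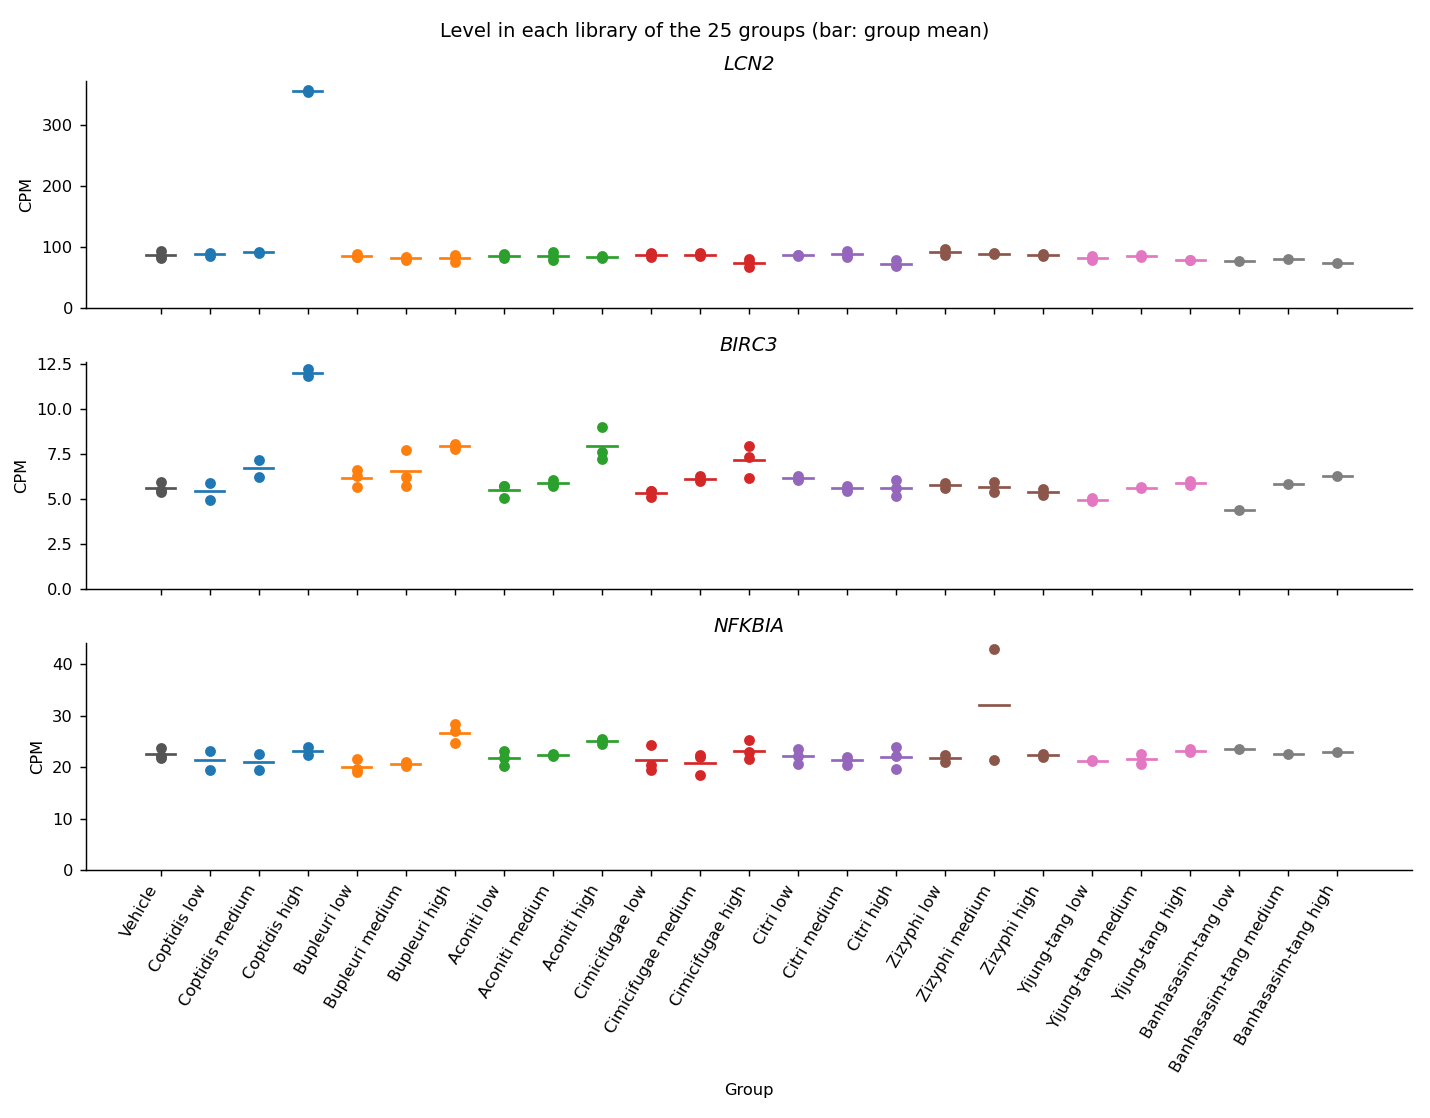
Levels of LCN2, BIRC3 and NFKBIA in each of the 60 libraries (points, CPM, axes from 0) over the 25 groups, with bars at group means and extract names shortened. LCN2 is high in the Coptidis high group alone, BIRC3 in the high groups of 4 extracts, and NFKBIA is highest in 1 Zizyphi medium library at 42.9 CPM.

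Extracts that shared a set and doses were compared at 500 µg/mL. Between Citri and Cimicifugae none of the 10 genes passed, where 0.905% of all tested genes differed. BIRC3 was nearest, at 5.17, 6.07 and 5.61 CPM under Citri against 7.31, 6.16 and 7.93 under Cimicifugae (-0.34 ± 0.09, adjusted p = 0.0622). The difference of their changes from low to high was -0.55 ± 0.13 (adjusted p = 0.0696), where 0.2% of all tested genes passed. Both passed without Zizyphi medium replicate 3 (adjusted p = 0.0267 and 0.0293) and without Cimicifugae high replicate 2 (0.0123 and 0.0133). Between Banhasasim-tang and Yijung-tang none passed either, against 1.57% of all tested genes. CXCL1, at 0.864 CPM against 1.85 and 1.99, was nearest (-1.15 ± 0.35, adjusted p = 0.1). It passed without Zizyphi medium replicate 3 (adjusted p = 0.044) and with the compared groups alone (0.0103). The difference of their changes passed for none of the 10, against 0.462% of all tested genes. At an unadjusted p under 0.05, 2 genes passed in each comparison of levels and 1 in each comparison of changes. DESeq2 called 0 in all 4, among the genes it gave an adjusted p. The shares of all tested genes given here are at adjusted p, and none was computed at the unadjusted level.

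Each extract's high dose was also compared with vehicle, and these comparisons share the 3 vehicle libraries. The same 7 genes were higher under Coptidis, where 30.9% of all tested genes were higher: LCN2 by 2.04 ± 0.06, CCL20 by 2.80 ± 0.41, CXCL2 by 2.17 ± 0.41 and CXCL3 by 1.65 ± 0.23. TNFAIP3 was higher by 1.30 ± 0.16, ICAM1 by 1.21 ± 0.11 and BIRC3 by 1.09 ± 0.09. The median over the 10 was 1.25, against -0.02 over all tested genes. Under Bupleuri 5 were higher, where 14.3% of all tested genes were: CCL20 by 1.69 ± 0.41, CXCL8 by 0.95 ± 0.13, ICAM1 by 0.80 ± 0.10, BIRC3 by 0.49 ± 0.09 and TNFAIP3 by 0.46 ± 0.15 (adjusted p = 0.0211), with a median of 0.37 over the 10. For TNFAIP3 the vehicle libraries (2.05, 1.93 and 1.96 CPM) lay above all low Bupleuri libraries and below all high ones. Its call was lost without vehicle replicate 2 (adjusted p = 0.065), Bupleuri high replicate 1 (0.0637) or high replicate 2 (0.088), and without the filter on low counts (0.138). NFKBIA, at 0.25 ± 0.12, did not pass (adjusted p = 0.119). It did pass without Zizyphi medium replicate 3 (adjusted p = 0.00485), under total-count scaling (0.0272), without the filter (0.0345) and with the compared groups alone (0.0291). Comparisons with the low dose and with vehicle share the high libraries.

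BIRC3 was also higher than in vehicle (5.38, 5.94 and 5.49 CPM) under Aconiti, by 0.49 ± 0.09 (adjusted p = 0.000113), and under Cimicifugae, by 0.35 ± 0.09 (adjusted p = 0.00698). Under Aconiti CXCL8 was higher too, by 0.41 ± 0.13 (adjusted p = 0.0243), which makes 2 genes where 9.34% of all tested genes were higher. LCN2 was lower than in vehicle (92.5, 82.3 and 85.6 CPM) under Citri (-0.26 ± 0.06, adjusted p = 0.0024) and Cimicifugae (-0.23 ± 0.06, adjusted p = 0.00585). It was the 1 gene lower in each, where 5.6% and 7.71% of all tested genes were lower, and BIRC3 the 1 gene higher under Cimicifugae, where 10.3% were. Without vehicle replicate 1, CXCL8 under Aconiti (adjusted p = 0.0799) and BIRC3 (0.056) and LCN2 (0.076) under Cimicifugae no longer passed. The CXCL8 call under Aconiti was also lost without vehicle replicate 2 (adjusted p = 0.12), high replicate 1 (0.0923) or high replicate 3 (0.0813). Both Cimicifugae calls were lost without high replicate 3 (BIRC3 adjusted p = 0.159, LCN2 0.0819). Under total-count scaling LCN2 passed neither under Citri (adjusted p = 0.159) nor under Cimicifugae (0.213), and CXCL8 did not pass under Aconiti (0.0564).

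None of the 10 genes was called in edgeR against vehicle at the high dose of Zizyphi, Yijung-tang or Banhasasim-tang, where 6.92%, 7.65% and 7.6% of all tested genes differed. With the compared groups fitted alone these calls over all genes fell from 1109 to 12, from 1225 to 29 and from 1218 to 121, and for Zizyphi they fell to 84 without high replicate 3. At an unadjusted p under 0.05, 0, 3 and 1 of the 10 genes passed. Among the genes it gave an adjusted p, DESeq2 called 0, 0 and 1, the last being LCN2 (-0.24, adjusted p = 0.0465). No share of all tested genes was computed at unadjusted p, here or for the low doses below. Without Zizyphi medium replicate 3 edgeR called LCN2 under Banhasasim-tang (adjusted p = 0.0382) and CXCL8 under Yijung-tang (0.40, adjusted p = 0.0265), and also CXCL8 against vehicle at the high dose of Cimicifugae (0.0379). At the low dose edgeR called none of the 10 genes in any of the 8 extracts, and 0 to 2 per extract had an unadjusted p under 0.05. DESeq2 called 0 there too, among the genes it gave an adjusted p. Without that same library CXCL8 passed at the low Bupleuri dose (0.31, adjusted p = 0.0433). All tested genes called at the low dose came to 6.12% for Coptidis, 6.04% for Zizyphi, 14.2% for Citri and 13.6% for Cimicifugae. They came to 14.5% for Bupleuri, 14.5% for Aconiti, 7.6% for Yijung-tang and 3.23% for Banhasasim-tang. These shares depended on the fit and on vehicle replicate 1. With the groups alone the calls fell from 517 to 1 for Banhasasim-tang, from 968 to 11 for Zizyphi, from 1218 to 33 for Yijung-tang and from 981 to 49 for Coptidis. Without vehicle replicate 1 they fell from 2319 to 382 for Aconiti, from 2323 to 462 for Bupleuri, from 2268 to 427 for Citri and from 2171 to 441 for Cimicifugae.

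The rest of the pathway was followed in 7 lists of 85 genes besides the 10, of which 59 were tested. Under Coptidis 36 of the 59 rose and 6 fell from low to high dose, their median being 0.41 against -0.02 over all tested genes, and under Bupleuri 7 rose and 2 fell, with a median of 0.07 against -0.01. Of all tested genes 27.7% rose and 28.4% fell under Coptidis, and 6.34% rose and 6.6% fell under Bupleuri. Under Banhasasim-tang 1 gene was called, TNFRSF1A, the main receptor for tumor necrosis factor, where 1.04% of all tested genes were called higher. Its difference of 0.33 ± 0.07 (adjusted p = 0.00644) is between 2 single libraries, with a spread assumed from the other groups, and in these the mitochondrial ribosomal RNA share was 1.11% at the low and 10.2% at the high dose. The call was lost under total-count scaling (adjusted p = 0.803) and without the filter on low counts (0.449). In the other 5 extracts none was called. These lists were drawn up with earlier results of these data known.

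Among the 5 genes of the NF-kappaB proteins themselves, 3 rose and 1 fell under Coptidis, where 27.7% of all tested genes rose and 28.4% fell. RELB, partner in the alternative branch of the pathway, measured 7.29 to 8.44 CPM in the low and 16.6 to 18.4 in the high libraries, a rise of 1.15 ± 0.15 (adjusted p = 1.89e-08). NFKB2, whose product forms the other part of that dimer, rose by 0.65 ± 0.10 (adjusted p = 3.65e-07), and RELA, the main activating subunit, by 0.50 ± 0.13 (adjusted p = 0.000916). NFKB1, which encodes p105 and p50, fell by 0.21 (SE 0.06, adjusted p = 0.00325), and REL stood at 0.07 ± 0.21. The NFKB1 call was lost under total-count scaling (-0.08, adjusted p = 0.643), without the filter (0.069) and without Coptidis low replicate 3 (0.0536). Under Bupleuri none of the 5 passed, and RELB stood at 0.27 ± 0.13 (adjusted p = 0.191). Without Zizyphi medium replicate 3, RELB (adjusted p = 0.0453) and RELA (0.11, adjusted p = 0.0203) passed there.

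Of 9 inhibitors and feedback genes besides the members, 7 rose under Coptidis. Over all tested genes 27.7% rose and 28.4% fell there, and 6.34% rose and 6.6% fell under Bupleuri. CYLD, a deubiquitinase that limits signalling, rose most, by 1.73 ± 0.09 (adjusted p = 1.09e-19). It went from 15.4 and 15.6 CPM at the low to 50.8 and 51.9 at the high dose. BCL3 and NFKBIE, both of the IkappaB family as is NFKBIA, rose by 1.15 ± 0.16 and 1.11 ± 0.18. Under Bupleuri 1 of these 9 rose, NFKBIB (0.26 ± 0.06, adjusted p = 0.00351), whose call was lost under total-count scaling (0.203). Of 17 kinases and adaptors, 9 rose and 2 fell under Coptidis. BIRC2, the close relative of BIRC3, rose by 1.10 ± 0.06 and TAB2 by 1.09 ± 0.18, while TRADD, an adaptor of the tumor necrosis factor receptor, fell by 0.80 (SE 0.13). Under Bupleuri MAP3K14, the kinase of the alternative branch, rose by 0.34 ± 0.08 and IRAK4, a kinase of Toll-like and interleukin 1 signalling, fell by 0.25 (SE 0.07). The MAP3K14 call was lost under total-count scaling (adjusted p = 0.0807), and that of IRAK4 without the filter (0.15) or Bupleuri low replicate 3 (0.0678).

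TLR4, the receptor for bacterial lipopolysaccharide, moved in opposite directions under the 2 extracts. It measured 15.3 to 16.4 CPM at the low and 5.96 to 6.33 at the high Coptidis dose, a fall of 1.37 (SE 0.10, adjusted p = 1.83e-15). It measured 15.3 to 15.6 CPM at the low and 22.6 to 25.7 at the high Bupleuri dose, a rise of 0.68 ± 0.07 (adjusted p = 1.6e-09). The difference of the changes was -2.04 ± 0.12 (adjusted p = 1.28e-17), in the comparison added after the values had been seen. Of the 8 upstream receptors tested out of 12, 5 rose and 1 fell under Coptidis, among them TLR3, a receptor for double-stranded RNA (1.33 ± 0.16), and IL1RAP, the shared chain of interleukin 1 receptors (1.22 ± 0.13). Over all tested genes 27.7% rose and 28.4% fell under Coptidis, and 6.34% rose and 6.6% fell under Bupleuri. Under Bupleuri 3 rose: TLR4, TNFRSF1A (0.27 ± 0.04) and LTBR (0.20 ± 0.05), the last also lost without the filter (adjusted p = 0.0725). Under total-count scaling TNFRSF1A (0.149) and LTBR (0.316) did not pass.

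Of 19 other cytokine and chemokine genes 10 could be tested, and 6 rose and 1 fell under Coptidis. In that comparison 27.7% of all tested genes rose and 28.4% fell. IL32, a proinflammatory cytokine, had the largest rise in these lists, from 0.178 and 0.195 CPM to 3.67 and 3.86 (4.29 ± 0.46, adjusted p = 1.23e-10). It lay under the filter's 0.5 CPM at the low dose and above it at the high dose. Its place among the tested genes may thus rest partly on the group in which it was called. Which genes of these lists passed the filter in that way was not counted. CSF1, the growth factor of macrophages, rose under both extracts, by 2.17 ± 0.36 under Coptidis and 1.63 ± 0.30 under Bupleuri (adjusted p = 2.62e-06 and 0.000115). The difference between these, 0.53 ± 0.49, did not pass (adjusted p = 0.399). CCL5, a T cell attractant, rose by 1.95 ± 0.40 under Coptidis and CXCL16, which is made on the cell surface and then shed, by 1.40 ± 0.11. CCL28, a mucosal chemokine, fell by 0.65 (SE 0.24, adjusted p = 0.0209), a call lost without Coptidis low replicate 2 (0.0617), low replicate 3 (0.0748) or high replicate 2 (0.237). Of 17 other known targets 10 were tested, and IRF1 (1.37 ± 0.08) and PTGS2 (1.07 ± 0.12), the inducible cyclooxygenase, were among 6 that rose under Coptidis. CD83 fell by 1.14 (SE 0.32, adjusted p = 0.00317), lost without Coptidis high replicate 3 (0.0839). PTGS2 went the other way under Bupleuri, falling by 0.34 (SE 0.10, adjusted p = 0.0214), and the difference of the changes was 1.41 ± 0.16 (adjusted p = 8.51e-10). The fall alone was lost without Bupleuri low replicate 1 (adjusted p = 0.144), low replicate 2 (0.0711), high replicate 1 (0.0796) or high replicate 3 (0.0806), and under total-count scaling (0.115). IER3 rose under Bupleuri by 0.36 ± 0.09. None of the 6 genes for receptors of the 10 products passed the filter on low counts.

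**Figure D5:**
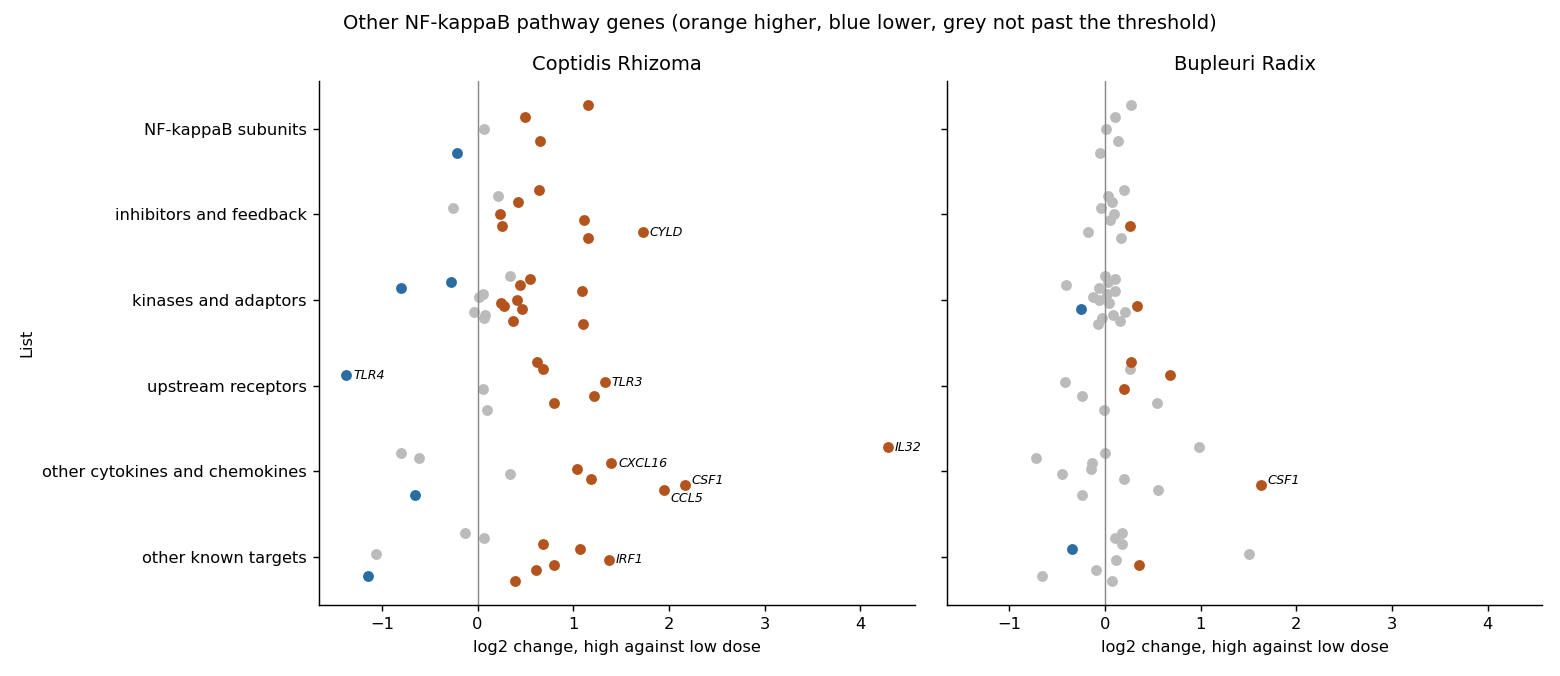
Points give the log2 change from low to high dose of each tested pathway gene other than the 10 members, by list, for Coptidis Rhizoma and Bupleuri Radix, coloured where the adjusted p was under 0.05. Under Coptidis 36 of 59 points are orange and 6 blue, with IL32 farthest right at 4.29, and under Bupleuri CSF1 is the farthest coloured point at 1.63. Over all tested genes 27.7% rose and 28.4% fell under Coptidis.

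Over the 25 group means the 10 genes did not share a single profile. As a description, Pearson's r of log2 levels was 0.914 for CXCL2 with LCN2, but 0.483 over the 22 groups without Coptidis. CXCL8 with BIRC3 stood at 0.514 over 25 groups and 0.732 over the 22, and CXCL8 with CCL20 at 0.481 and 0.7. The groups share library sets, depth and, for the extracts, doses, and they are not independent points. Of all tested genes, FBXO32 (0.977), BTG1 (0.974), RIOK3 (0.973), STX5 (0.972) and AMOTL2 (0.971) were most like LCN2 over the 25 groups. Without Coptidis these gave way to CYSTM1 (0.777), ANXA4 (0.762), P3H1 (0.753), PLAAT4 (0.724) and BLNK (0.719). HSPH1 (0.85), EMP1 (0.828), AKAP12 (0.822), CAV2 (0.799) and SLC35B4 (0.798) were most like CXCL8. Without Coptidis they were B3GNT5 (0.885), HSPH1 (0.854), JAG1 (0.853), UGDH (0.846) and EMP1 (0.846). For NFKBIA they were TM4SF1 (0.815), FOSL1 (0.813), TENT4A (0.808), EIF1AD (0.792) and TICAM1 (0.786). Without Coptidis they were SPRR1B (0.861), TOB1 (0.843), FOXC1 (0.842), OSGIN2 (0.839) and HOXA7 (0.839), and in both cases the Zizyphi medium mean holds the library that stood apart.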

How the data were processed

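The deposited table holds expected counts per Ensembl gene, which the authors made from reads. Per the submitters' processing notes, the tools were STAR 2.7.3a and RSEM 1.3.3 with Trim Galore 0.6.5 and FastQC 0.11.9, and the build was GRCh38 (hg38). Which annotation was counted is not given in the sources used. Of its 270 sample columns, 60 match samples analysed here and 210 were not used. Expected counts were rounded to whole numbers, which moved at most 0.00028% of a library. A gene was tested if 3 libraries or more held 0.5 CPM or more of it.

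Tests used edgeR 4.0.16 (R 4.3.3), quasi-likelihood, TMM scaling, one mean per group over 25 groups and 60 libraries (35 residual degrees of freedom, common dispersion 0.00613), and Benjamini-Hochberg adjustment over all tested genes with a threshold of 0.05. The SE of a log2 change is its size divided by the square root of F, and 95% intervals are 1.96 SE either way (normal). CPM values use TMM library sizes. A count of 0 allows up to 3 counts, 0.0817 to 0.166 CPM depending on the library, and covers counting error only. DESeq2 1.42.0 was an alternative. It gave no adjusted p for part of the member results, and those do not enter its counts. The code was checked on simulated counts. Symbols came from a gene name table, or from GENCODE 29 where that had none. Coordinates of genes are GENCODE 29 (GRCh38).

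The 10 members and the other gene lists were chosen with earlier results of these data known. Named genes were the members, the 5 NF-kappaB subunits, up to 3 of the largest called rises and up to 3 of the largest called falls from low to high dose per extract in the pathway lists, and the 5 genes most like CXCL8, NFKBIA and LCN2 by correlation. The other pathway genes and the markers were named after their values were seen. The comparison of changes between Coptidis and Bupleuri was also added after seeing the data.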

Additional observations from a re-analysis of the deposited data

Results flagged for a closer look

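The change from low to high dose differed between Coptidis Rhizoma and Bupleuri Radix for 6 of the 10 genes, by a test of the difference itself. It was larger under Coptidis by 2.25 for CXCL2, 2.20 for CXCL3, 2.08 for LCN2, 0.86 for TNFAIP3, 0.78 for BIRC3 and 0.43 for ICAM1 (log2). The comparison was added after the values had been seen.

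The medium doses of 6 extracts, 14 libraries in all, entered no comparison. In them 1 level exceeded 1.5 times the highest vehicle library for a gene above 1 CPM in vehicle. NFKBIA measured 42.9 CPM in Zizyphi Fructus medium replicate 3, against 21.3 in the other medium library and 21.7 to 23.8 in vehicle. This is the library that stood apart from all others, and 1 library has no replicate check.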

How the results depend on the processing

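The number of the 10 genes called from low to high dose stayed between 6 and 8 for Coptidis (7 as reported) and between 4 and 6 for Bupleuri (6) in all alternatives run: 9 other settings and 45 fits that each left out 1 library. No direction of a called member reversed. Smaller counts moved. For Citri the count from low to high went from 0 to 1 with the replicate block (number over all sets, or within a library set), in DESeq2, with the compared groups alone and without Zizyphi medium replicate 3, and ranged from 0 to 1 as single libraries were left out. For Cimicifugae it went from 2 to 0 under total counts, without the filter on low counts and with the groups alone, and ranged from 0 to 2. From medium to high Bupleuri it went from 6 to as low as 3 (without medium replicate 3), range 3 to 6, and at most 5 without a library of either group.

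Against vehicle at the high dose, Bupleuri, 5 as reported, ranged from 4 to 6, and Citri went from 1 to 0 under total counts. Cimicifugae went from 2 to 1 under total counts and without the filter, to 0 with the groups alone, and ranged from 0 to 3. Aconiti went from 2 to 1 under total counts and ranged from 1 to 2. Yijung-tang went from 0 to 1 without Zizyphi medium replicate 3 (range 0 to 1). Banhasasim-tang went from 0 to 1 in DESeq2 and without that library (range 0 to 1), and low Bupleuri against vehicle from 0 to 1 without it (range 0 to 1). At the high dose Citri against Cimicifugae, and the difference of their changes, ranged from 0 to 1. Banhasasim-tang against Yijung-tang went from 0 to 1 with the groups alone and ranged from 0 to 1. Why these counts moved was not tested.

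The labels do not say that a replicate number marks a shared culture or day, and not every same-numbered pair correlated over 0.1, so the numbers were not taken as pairing. Same-numbered libraries did deviate together more than others: their median correlations within a set were 0.08 to 0.173, against -0.0994 to -0.0508 for different numbers, and in set 12 31 of 45 same-numbered pairs were over 0.1 against 7 of 90. A shared source is a hint from the data that was not tested. With the replicate block within sets, LCN2 from low to high Citri passed (adjusted p = 0.0263), and NFKBIA (adjusted p = 0.0606) and BIRC3 (0.0515) were lost from medium to high Bupleuri.

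Over all tested genes the Bupleuri count from low to high was 2072, against 3703 with the groups alone, 3632 without Zizyphi medium replicate 3 and 1404 under total counts, so the share beside the members' count depends on it. The Coptidis count, 8996, stayed between 7635 and 10204. Against vehicle the counts moved more: high Bupleuri, 4327, fell to 2622 without vehicle replicate 1, high Zizyphi went from 1109 to 12 and high Yijung-tang from 1225 to 29 with the groups alone, and low Banhasasim-tang from 517 to 1. Without Zizyphi medium replicate 3 low Coptidis went from 981 to 3033. Total-count scaling moved the share of calls that were higher by over 10 points in 25 of 33 comparisons, and relative log expression size factors in 0. Depth limits CXCL2 and CCL20, with 0 to 54 counts per library.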
